A study of Caenorhabditis elegans with 2 samples.

Results

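The genes described here are the 79 protein-coding genes of Caenorhabditis elegans whose symbols start with rab-, arf-, arl-, vps- or sec-, out of 19973 protein-coding genes. The rule uses the symbol alone and no measured value, though it was drawn up with earlier results of these data known. They hold 20 Rab and 9 Arf or Arl GTPases, 7 genes of the COPII coat and its assembly, and 43 genes of other machinery, so they are broader than GTPases and coats. A gene counted as having a peak when a summit, the highest point of a peak, fell in its window, which runs from 1000 bp before its annotated 5′ end to 200 bp after it.

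The peaks come from chromatin immunoprecipitation followed by sequencing (ChIP-seq) against an eGFP fusion of C16A3.4, in whole first-stage (L1) larvae of pooled sexes and unknown age. The tagged protein, named znf-622 in the annotation, has zinc fingers, and related proteins of other eukaryotes take part in making the large ribosomal subunit. The single group has 2 samples, biological replicates 1 and 2, both of strain OP345, in which the integrated transgene wgIs345 accompanies the mutation unc-119(ed3). The labels name a control experiment, which is not analysed here, and no untagged or treated group belongs to the series, so no comparison between conditions is possible. In whole larvae, a strong peak in few cells and a weaker peak in many cells cannot be told apart.

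Cargo moves between membrane compartments in vesicles. Coats such as COPII bend membrane and select cargo, Rab and Arf GTPases mark compartments and recruit effectors, tethers such as the exocyst and HOPS catch vesicles, and SNARE proteins fuse them. The ESCRT machinery sorts ubiquitinated membrane proteins into vesicles that bud into the endosome, and the Sec61 translocon passes newly made proteins into the endoplasmic reticulum. In the worm these pathways have been studied above all in oocytes, the intestine, neurons and cells that clear dying cells.

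Of the 79 genes, 35 (44.3%) had a summit of the thresholded list in the window, against 13.7% of all protein-coding genes. These 35 genes had 35 different peaks, so no peak was counted for several of them. Of the other 44 genes, 13 had a summit in the relaxed pooled list alone. Over all protein-coding genes without a thresholded summit it was 4554 of 17245. With these 13 genes the total came to 48 (60.8%, against 36.5% of all protein-coding genes). The pooled list was the input for thresholding and holds background as well as peaks. At these 13 genes the deposited −log10 q ran from 0.064 (sec-23) to 3.38 (arf-5). At each of the 35 the −log10 q was 3.84, the highest value in the thresholded list, so it does not rank those genes. The values at the 13 were lower. The −log10 q was at most 0.62 at vps-18, arl-1, rab-10, arl-3, vps-39, vps-29 and sec-23, so such summits can be background. For the remaining 31 genes no pooled summit lay in the window. Strength is given as the signal that the authors deposited for each peak, whose scale is not stated. The 35 genes spanned signals of 50.4 to 397 (median 102), and the median over all 2728 protein-coding genes with a thresholded summit was 98.0. In the pooled list the medians were 71.9 for the 48 genes and 31.0 for all 7282 protein-coding genes with a summit. Thus the share with a peak was above that of protein-coding genes as a whole in both lists. The lists are not independent, since the pooled list contains the thresholded peaks, and among genes without a thresholded summit the pooled shares were close. The medians were close in the thresholded list and apart in the pooled list. Of the genes in the pooled medians, 35 of the 48 and 2728 of the 7282 had a thresholded summit. The pooled medians are thus no measure of strength apart from those shares. No test was made of these differences.

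**Figure D1:**
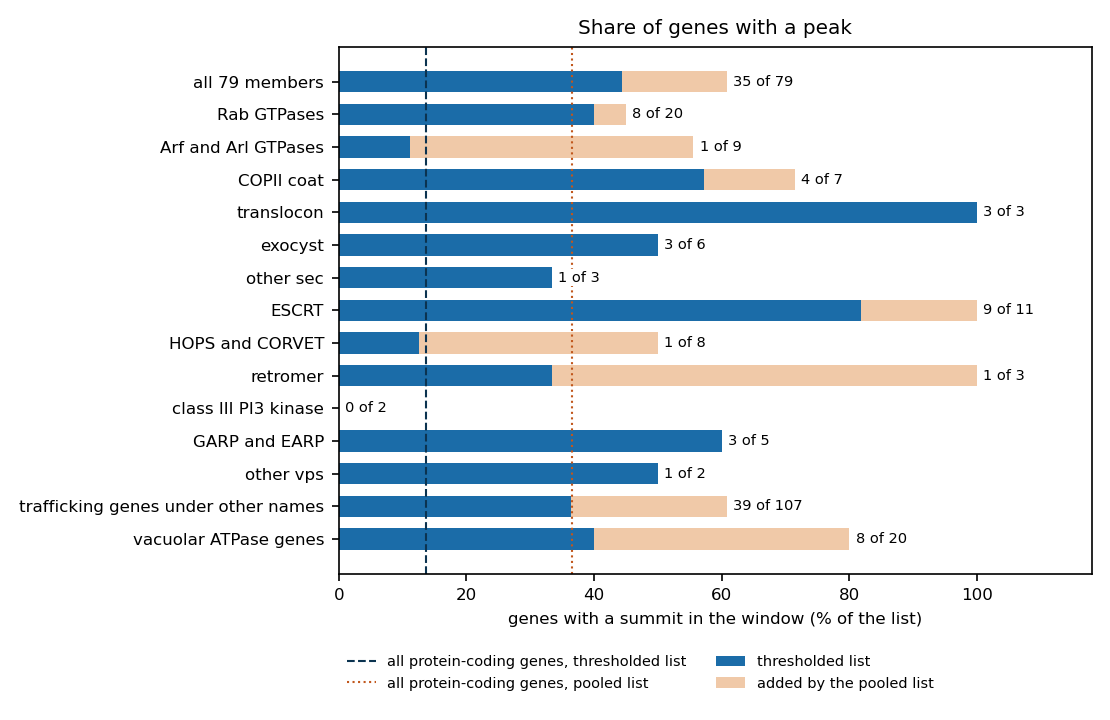
Percentage of genes in each list with a peak summit in the window. Dark bars are the thresholded list, pale bars what the relaxed pooled list adds, numbers give genes with a thresholded summit of all in the list, and the vertical lines mark all protein-coding genes (13.7% thresholded, 36.5% pooled). The dark ESCRT and translocon bars reach far to the right of the thresholded line, with 9 of 11 and 3 of 3 genes. The dark bars of Arf and Arl genes (1 of 9) and of HOPS and CORVET genes (1 of 8) end to the left of it. Their pale bars reach beyond both lines. The class III PI3 kinase genes (0 of 2) have no bar.

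The thresholded list holds the strongest of the 21096 pooled peaks, with signals from 48.4 to 931. Of the 35 genes, 10 had their peak in the strongest 10% of that list and 21 above its median rank. The second share was close to that of protein-coding genes as a whole, of which 1628 of 2728 had a summit above the median rank. For the strongest 10% no such count was made. The strongest stood at position 43 and the weakest at position 3072. At the lower edge of the list stood sec-12 (signal 53.7), rab-8 (51.5) and sec-22 (50.4). The strongest genes outside it were arf-5 (signal 44.3 in the pooled list), arl-8 (42.0) and vps-26 (39.2).

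The Rab GTPases had a thresholded summit in 8 of 20 cases, against 13.7% of all protein-coding genes. The highest signal of all 79 genes was at rab-18, whose mammalian relative acts at lipid droplets and the endoplasmic reticulum. Its peak, on chromosome III from 1080643 to 1080869 (ce11), reached 397, and the replicates on their own gave 176 (replicate 1) and 229 (replicate 2). The summit lay 22 bp inside the 5′ untranslated region of rab-18, and also in the windows of kbp-4 and par-2 on the opposite strand. The peak of rab-7, the Rab of late endosomes and lysosomes, had a signal of 273, with 104 in replicate 1 and 172 in replicate 2, on chromosome II from 11967619 to 11967807. Its summit was at −801 bp from rab-7 but at −188 bp from W03C9.5 on the same strand, and also in the window of mex-1 on the opposite strand. At rab-11.1, a Rab of recycling endosomes, the peak on chromosome I from 110672 to 110816 had a signal of 211 (83.2 and 133 in replicates 1 and 2). It lay at −686 bp from rab-11.1 and at −295 bp from the ribosomal protein gene rpl-7 on the opposite strand.

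Weaker Rab peaks were found at rab-14, which acts in endosome and phagosome maturation (signal 112), at rab-5, the Rab of early endosomes (111), and at rab-1, which acts between the endoplasmic reticulum and the Golgi (94.3). The last of the 8 were rab-39 (62.9) and rab-8, a Rab of transport to the plasma membrane (51.5). The summit was more than 450 bp upstream of the annotated 5′ end in 6 of these 8 genes. Over all protein-coding genes with a thresholded summit, 20.8% had it that far upstream. The median position over the 8 was −548.5 bp, against −227 bp for all such genes. As at rab-7 and rab-11.1, another 5′ end was nearer at rab-1 (C39F7.5, summit at −257 bp) and at rab-8 (D1037.1, −125 bp). Under a window of 500 bp to each side, rab-1, rab-5, rab-7, rab-8 and rab-11.1 lost their summit. The 11 Rab genes with no pooled summit included rab-3, the synaptic vesicle Rab, both rab-6 genes (rab-6.1 and rab-6.2), which act at the Golgi, and rab-28 and rab-35. Such a gene can still have a peak near another start or farther away: rab-3 had a thresholded summit with any transcript start, and rab-6.1, rab-10, rab-19, rab-21 and rab-33 had one with 2000 bp upstream. For rab-10, which acts in endocytic recycling in the intestine, the pooled list alone held a summit (signal 22.6).

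Among the Arf and Arl genes 1 of 9 had a thresholded summit, a share close to the 13.7% of all protein-coding genes. That gene was arf-6, whose product acts at the plasma membrane and in endocytic recycling. Its signal was 64.6, with 26.7 in replicate 1 and 36.3 in replicate 2, on chromosome IV from 16946777 to 16947120. The summit was at −171 bp from arf-6 and at −149 bp from Y116A8C.9 on the opposite strand. Pooled summits alone were found at arf-5 (signal 44.3), at arl-8, which moves lysosomes (42.0), at arl-1, a Golgi GTPase (22.8), and at arl-3, a cilium GTPase (21.5). The arl-8 summit had a signal of 40.1 in replicate 2, and no summit of replicate 1 lay in the arl-8 window. No pooled summit lay in the windows of arf-1, arl-5, or the cilium genes arl-6 and arl-13, but arf-1 had a thresholded summit with any transcript start and arl-13 with 2000 bp upstream.

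Genes of the first steps of secretion were led by the Sec61 translocon, in which 3 of 3 genes had a thresholded summit, against 13.7% of all protein-coding genes, each in a window shared with another gene. The peak of sec-61.G, which encodes the gamma subunit, had a signal of 383, with 163 in replicate 1 and 222 in replicate 2, and lay on chromosome V from 10897263 to 10897485. Its summit was at −224 bp from sec-61.G. At sec-61.B, the beta subunit gene, the signal was 204 (68.1 and 135 in replicates 1 and 2) on chromosome IV from 2389086 to 2389244. That summit was at −489 bp from sec-61.B and at −281 bp from trap-3, a translocon-associated protein gene on the opposite strand. The alpha subunit gene sec-61.A had a weaker peak (signal 74.6, with 36.6 in replicate 1 and 27.4 in replicate 2) 41 bp inside its 5′ untranslated region, which lay in the window of the ribosomal protein gene rps-18 as well. For sec-61.G the other window was that of F32D8.13, which lies downstream of sec-61.G on the same strand (summit at −824 bp from its 5′ end).

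Of the 7 genes of the COPII coat and its assembly, which carry cargo out of the endoplasmic reticulum, 4 had a thresholded summit, against 13.7% of all protein-coding genes. The strongest was sec-24.1, a cargo-binding coat subunit, with a signal of 217 (89.0 and 129 in replicates 1 and 2) on chromosome IV from 11566271 to 11566440. The summit stood at −167 bp from sec-24.1, in exons of the non-coding genes F12F6.13 and F12F6.14. The others were sec-16A.2, a scaffold of exit sites (91.9), sec-31 of the outer coat (59.1) and sec-12, the activator of the Sar1 GTPase (53.7). For the inner coat gene sec-23 the pooled list alone held a summit, with a signal of 15.3. The relatives sec-24.2 and sec-16A.1 had no pooled summit.

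In some pairs of paralogs with the same base name, 1 gene had a thresholded summit in its window and the other did not. These pairs were not compared with other pairs of genes. At rab-11.1 the signal was 211, though the summit was nearer to rpl-7, whereas rab-11.2 had no summit in the pooled list. The same held for sec-24.1 (217) and sec-24.2, and for sec-16A.2 (91.9) and sec-16A.1. The vps-33.1 peak had a signal of 115.5, and the vps-33.2 window held a pooled summit of 28.9. For rab-6.1 and rab-6.2 neither window held a pooled summit.

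The exocyst, which tethers secretory vesicles at the plasma membrane, had a thresholded summit at 3 of 6 genes, against 13.7% of all protein-coding genes. For sec-3 the signal was 196, with 83.0 in replicate 1 and 111 in replicate 2, on chromosome X from 3099945 to 3100083, at −164 bp and in no other gene's window. At sec-15 it was 185 (77.7 and 109 in replicates 1 and 2) on chromosome X from 8835853 to 8836028. The sec-15 summit was at −257 bp from sec-15 and at −44 bp from C28G1.2, and a weaker thresholded summit (signal 51.6) lay at −456 bp. The peak of sec-5 (58.4) had its summit in a coding exon of pir-1, 4 bp inside the pir-1 5′ end. No pooled summit lay in the windows of sec-6, sec-8 and sec-10, though sec-6 had a thresholded summit with 2000 bp upstream. Of the other 3 sec- genes, sec-22, a SNARE gene between the endoplasmic reticulum and the Golgi, had a peak (signal 50.4) in the 5′ untranslated region of stau-1. The SNARE gene sec-20 and the signal peptidase gene sec-11 had no pooled summit, and sec-11 had a thresholded one with 2000 bp upstream.

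ESCRT genes with vps- symbols had a thresholded summit in 9 of 11 cases, against 13.7% of all protein-coding genes, and the remaining 2 had pooled summits. Among 8 ESCRT components and partners under other symbols, described below, the share was lower (37.5%). The 9 signals ran from 65.4 to 213 with a median of 146. In ESCRT-I these were vps-37 (176) and vps-28 (69.3), and in ESCRT-II vps-22 (204) and vps-25 (83.7). In ESCRT-III, whose filaments cut the budding neck, they were vps-32.1 (213), vps-60 (191), vps-2 (102) and vps-24 (65.4). The vps-4 gene, which encodes the ATPase that takes ESCRT-III apart, had a signal of 146. The 2 genes outside the thresholded list were vps-36 of ESCRT-II (31.5 in the pooled list) and vps-20 of ESCRT-III (26.9). With peak regions in place of summits, or with 2000 bp upstream, vps-36 was counted as well.

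The strongest ESCRT peaks were also seen in each replicate. At vps-32.1 the signal was 97.2 in replicate 1 and 116 in replicate 2, on chromosome II from 6589034 to 6589135. This summit was at −623 bp from vps-32.1 and at −430 bp from icd-1, a gene of the nascent polypeptide-associated complex on the opposite strand. The vps-22 peak on chromosome III from 4963033 to 4963198 had 100.01 in replicate 1 and 104 in replicate 2. The vps-22 summit was at −614 bp from vps-22 and at −63 bp from C27F2.9 on the same strand. By contrast vps-60 (71.3 and 120.3 in replicates 1 and 2), on chromosome V from 8606289 to 8606632, held its summit in no other gene's window, at −333 bp. The same was true of vps-37 (81.4 and 98.7), at −164 bp, of vps-4 (76.7 and 69.9), at −262 bp, and of vps-28 (42.8 and 21.3), at −151 bp. Of the 9 ESCRT summits, 4 thus lay in the window of the ESCRT gene alone, and at vps-2, vps-22 and vps-32.1 another gene's 5′ end was nearer.

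The tethers of late endosomes and lysosomes, HOPS and CORVET, had a thresholded summit at 1 of 8 genes, a share close to the 13.7% of all protein-coding genes. That gene was vps-33.1 (signal 115.5, with 52.2 in replicate 1 and 56.5 in replicate 2), on chromosome III from 8700588 to 8700931, at −167 bp. Pooled summits alone were found for vps-33.2 (28.9), vps-18 (23.1) and vps-39 (17.5). The other 4 genes, vps-8, vps-11, vps-16 and vps-41, had none. With 2000 bp upstream vps-16 had a thresholded summit as well.

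Retromer, which retrieves receptors from endosomes, had a thresholded summit at vps-35 (signal 80.5, with 26.6 in replicate 1 and 50.1 in replicate 2; chromosome II, 5907506 to 5907849). The other 2 retromer genes had pooled summits, vps-26 with 39.2 and vps-29 with 17.2. In the tethers GARP and EARP, which receive vesicles from endosomes, 3 of 5 genes had a thresholded summit, against 13.7% of all protein-coding genes. The strongest was vps-51 (signal 247, with 113 in replicate 1 and 135 in replicate 2; chromosome I, 5807450 to 5807587), followed by vps-50 (102) and vps-52 (55.3). The vps-51 summit lay at −234 bp from vps-51 and at −184 bp from lin-35, the retinoblastoma-family gene on the opposite strand. The GARP and EARP genes vps-53 and vps-54 had no pooled summit. Nor had the lipid kinase gene vps-34, its partner vps-15, or vps-13, which encodes a lipid transfer protein. The gene vps-45, which encodes a partner of SNARE proteins, had a peak with a signal of 62.7 (chromosome X, 974699 to 975042) whose replicate values were 11.6 and 43.5.

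**Figure D2:**
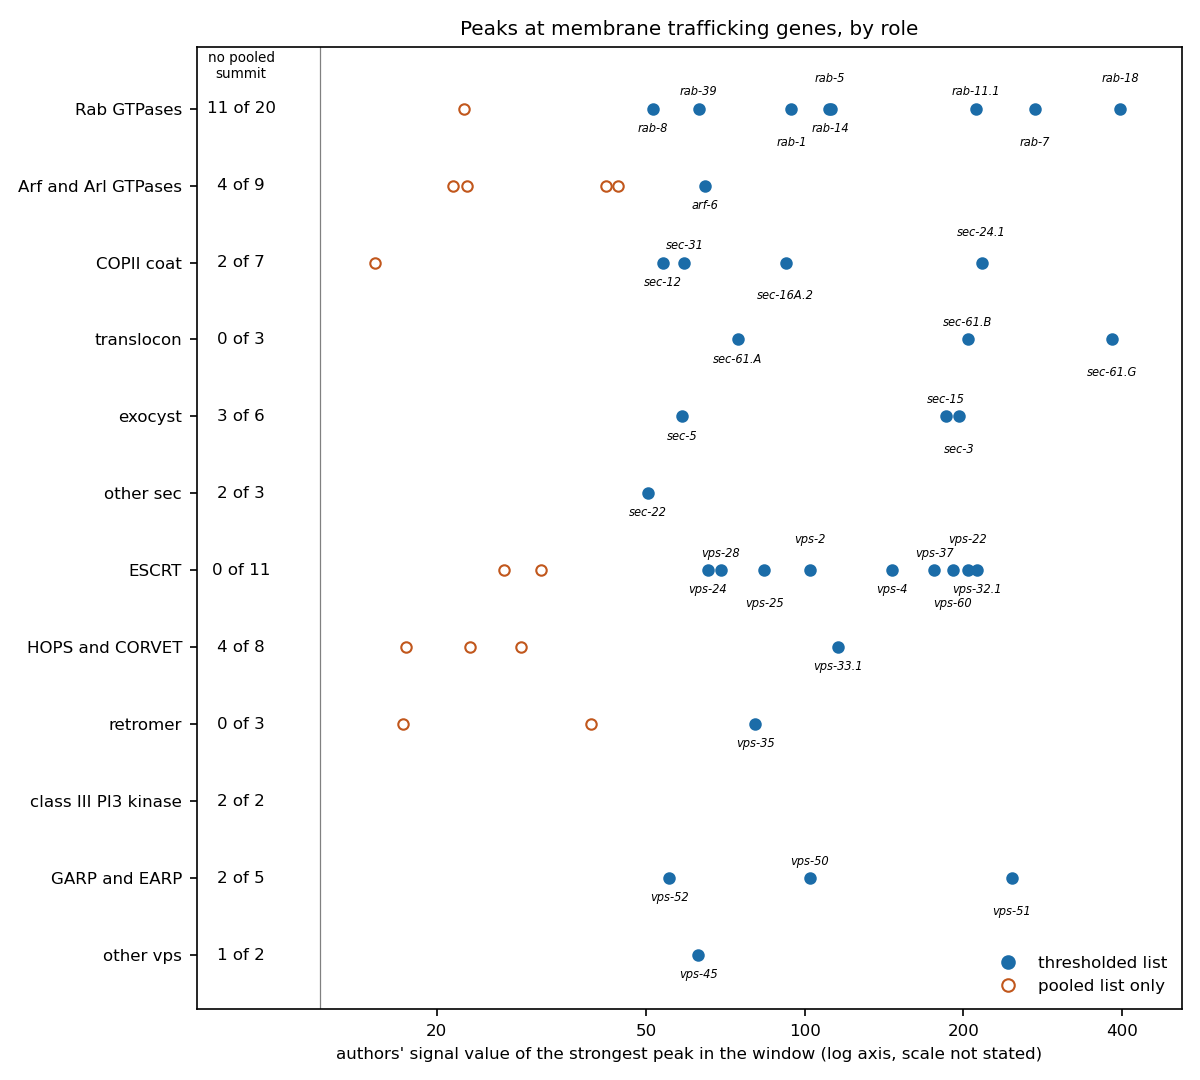
Signal of the strongest peak in the window of each gene, on a log axis, by role. Filled points are genes with a thresholded summit, named beside the point, open points genes with a pooled summit only, and the column at the left counts genes with no pooled summit. The thresholded signals run from 50.4 at sec-22 to 397 at rab-18, and the ESCRT row holds the most filled points, 9.

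In their relaxed lists of 30000 peaks, both replicates held a summit within 100 bp of the thresholded summit for 34 of the 35 genes (97.1%), against 93.0% of all thresholded peaks. The exception was sec-22, with a signal of 43.3 in replicate 2 and no replicate 1 summit within 100 bp. Some matches were weak. In replicate 1 the vps-45 peak had rank 12604 (−log10 q 0.295) and the rab-8 peak rank 6160 (0.817). The signal was higher in replicate 2 at 28 of the 34 genes and higher in replicate 1 at 6, namely vps-2, vps-4, vps-25, vps-28, sec-5 and sec-61.A. The median ratio of replicate 2 to replicate 1 was 1.36, close to the 1.46 over all 2996 thresholded peaks matched in both. Since the files hold no read counts, the depth of each replicate is unknown, and its part in this ratio was not tested. The ratio ran from 0.499 at vps-28 (42.8 and 21.3 in replicates 1 and 2) to 3.77 at vps-45 (11.6 and 43.5). At rab-8, too, replicate 2 was the higher (15.5 and 43.6). On the log2 scale the replicates' signals had a Pearson correlation of 0.80 (Spearman 0.81) over these 34 genes, which share the 2 libraries and were all chosen through the pooled list.

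With as many peaks as the thresholded list holds taken from each replicate by signal, 31 of the 79 genes (39.2%) had a summit in replicate 1, against 13.3% of all protein-coding genes. Replicate 2 alone also gave 31 genes (39.2%, against 13.1%). In each replicate 30 of these 31 were among the 35 of the thresholded list. Replicate 1's strongest peaks left out rab-8, sec-22, sec-31, vps-24 and vps-45 and added vps-20. Those of replicate 2 left out sec-5, sec-12, sec-61.A, vps-28 and vps-52 and added arl-8. For 25 genes the matched peak was among the strongest of both replicates in this sense.

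**Figure D3:**
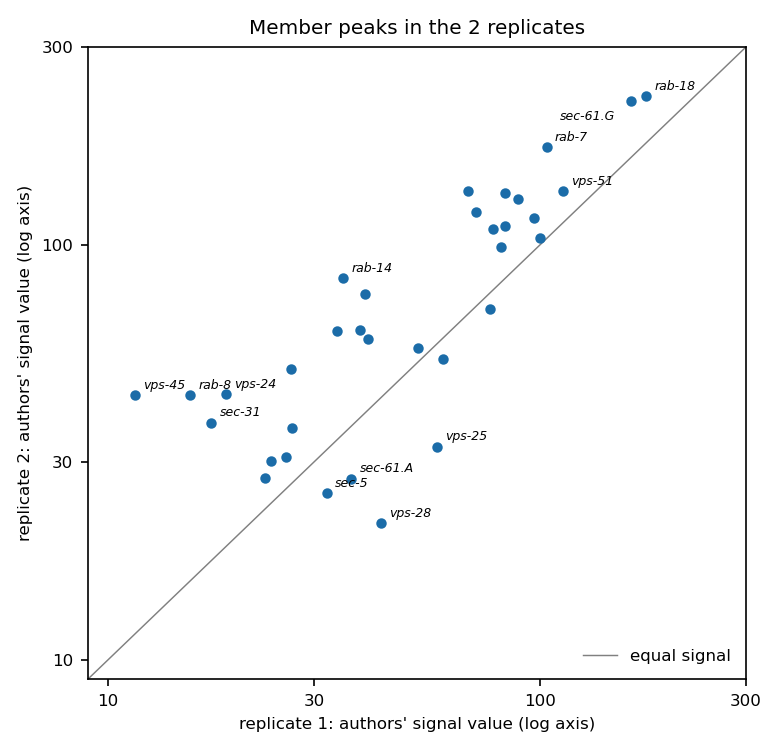
Signal in replicate 1 (x) and replicate 2 (y) of the 34 peaks matched in both replicates, each point 1 gene, on log axes, with the line of equal signal. Most points, 28 of 34, lie above the line, rab-18 and sec-61.G are at the upper right, and vps-45, rab-8 and vps-28 lie far from the line.

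Most summits lay just upstream of the annotated 5′ end. The position was upstream for 31 of the 35 genes (88.6%, against 95.9% of all protein-coding genes with a thresholded summit), with a median of −207 bp and quartiles of −401.5 and −144.5 bp. Over all protein-coding genes with a thresholded summit the median was −227 bp, with quartiles of −396 and −129 bp. Between the 5′ end and 300 bp upstream lay 20 of the 35 summits (57.1%, against 59.8% of all such genes). A further 9 lay more than 450 bp upstream (25.7%, against 20.8%), of which 6 belonged to Rab genes. The 4 summits inside genes were those of vps-24, vps-25, rab-18 and sec-61.A, at 5 to 41 bp. Many worm genes are trans-spliced or transcribed in operons, so the annotated 5′ end can lie away from the start of transcription.

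Promoter sharing was common. For 23 of the 35 genes (65.7%, against 55.8% of all protein-coding genes with a thresholded summit) the summit also lay in the window of another protein-coding gene. In 21 of these the other genes included 1 on the opposite strand. The gene itself had the nearest 5′ end for 22 of the 35, and another gene was nearer for 13. Counting only summits nearest to the gene, 22 of 79 genes (27.8%) had a peak, against 9.67% of all protein-coding genes. Among the 49 genes with no other protein-coding 5′ end within 1000 bp, 16 (32.7%) had a peak, against 8.15% of all such protein-coding genes. Those 16 included sec-24.1, sec-3, vps-60, vps-37, vps-4 and vps-35, but none of the 3 translocon genes. They were not all free of sharing. The summits of vps-32.1, rab-14, rab-5 and rab-39 still lay in another gene's window, and for vps-32.1 the other gene, icd-1, was nearer. Other windows gave the following counts. With 500 bp to each side 28 of 79 genes counted, against 11.6% of all protein-coding genes, and with 2000 bp upstream 45 counted, against 17.4%. With peak regions in place of summits 36 counted (against 14.4%), and with any transcript start 37 (against 14.5%). A list of pooled peaks 2 times as long as the thresholded one gave 41 genes, against 20.2%. For the pooled list the counts were 42 (against 31.3%) with 500 bp to each side, 60 (against 47.4%) with 2000 bp upstream, 52 (against 40.2%) with peak regions and 51 (against 39.4%) with any transcript start. Among the 49 genes with no close neighbour 24 had a pooled summit, against 31.6%.

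Where windows overlap the signal cannot be assigned to 1 gene. Non-coding exons held the summits of sec-24.1, vps-32.1, rab-11.1, sec-61.B and rab-1.

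**Figure D4:**
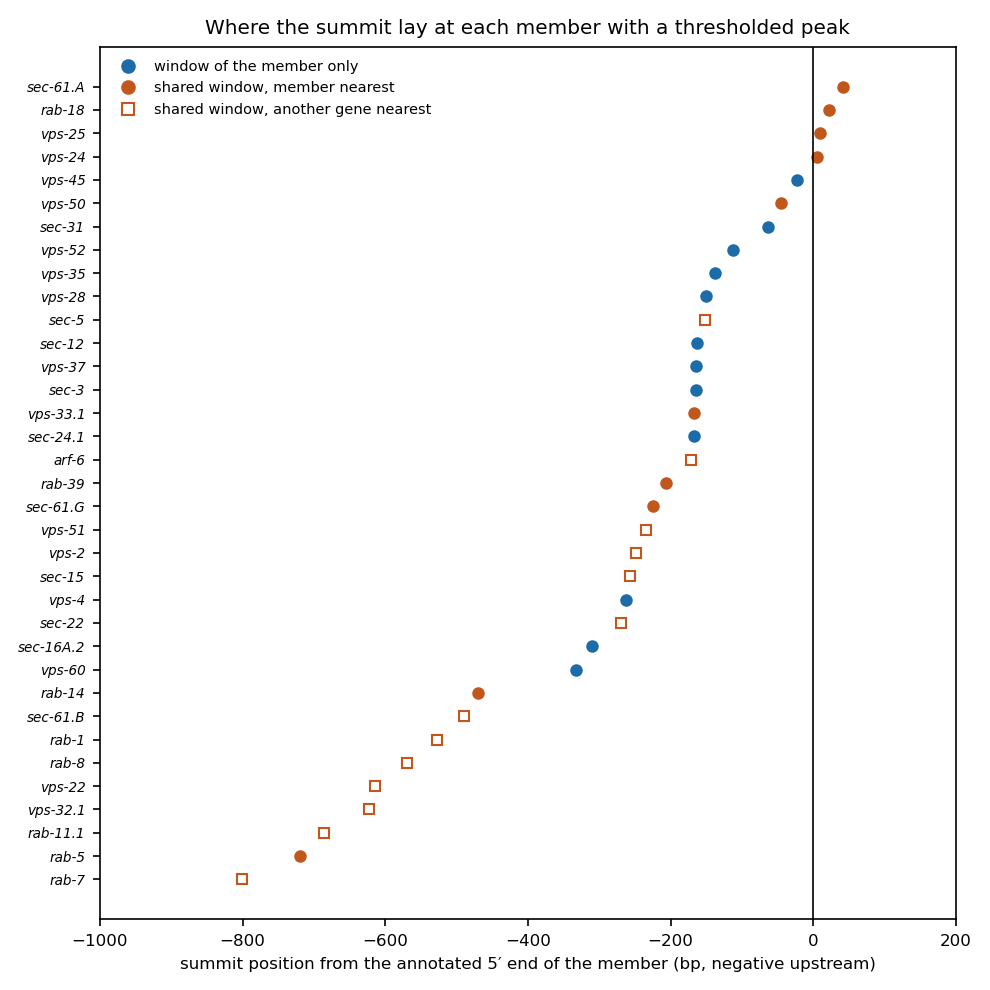
Position of the strongest thresholded summit from the annotated 5′ end of each of the 35 genes, in bp, with negative values upstream. Blue points mark summits in the window of that gene alone (12 genes), filled orange points shared windows in which the gene is nearest (10), and open squares shared windows in which another gene is nearest (13). The summits more than 450 bp upstream, from rab-14 at −470 bp to rab-7 at −801 bp, all lie in shared windows.

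Peaks at the stronger of these genes were also narrower, but the widths of other peaks of the same strength were not counted. Of the 12 genes with the highest signal, 11 had a peak under 344 bp wide, from 102 bp at vps-32.1 to 227 bp at rab-18. All other genes of the 35, and vps-60 among the 12, had peaks of exactly 344 bp, the width of 83.3% of all thresholded peaks. On chromosome X 7 of the 10 genes had a thresholded summit, against 10.7% of all protein-coding genes there. On chromosome III 4 of 16 had one, against 21.1%. The counts were 8 of 16 on chromosome I (against 19.6%), 7 of 16 on II (against 13.6%), 5 of 13 on IV (against 12.1%) and 4 of 8 on V (against 9.09%).

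The sequences around the summits show which short words these promoters hold. The 3 words of 6 bases that stood out most at the 3184 other thresholded peaks, by their share within 50 bp of the summit over that at windows shifted 500 bp to each side, were GAGAGA (25.1% against 5.40%), ACGCGC (14.7% against 1.37%) and ACGCAG (15.5% against 2.37%). Both strands were searched, so TCTCTC counts as the first word, GCGCGT read on the other strand as the second, and CTGCGT as the last. At the 35 peaks described here GAGAGA was present in 5 (14.3%, against 2.86% in their shifted windows), ACGCGC in 9 (25.7% against 1.43%) and ACGCAG in 8 (22.9% against 2.86%). At least 1 of the 3 was present at 17 of the 35 (48.6%), close to the 45.4% of other thresholded peaks. Promoters of all protein-coding genes, from 250 bp upstream to 50 bp downstream, hold them in 21.8%, 5.93% and 8.24% of cases, over a window about 3 times as long. A match is a description of letters, not of a binding site.

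The following stretches, 50 bases to each side of the summit base, of RefSeq's WBcel235 assembly (ce11) are on the strand of the named gene, with the 3 words in capitals. Among peaks on chromosomes II, III, IV, V and X with no annotated exon in the stretch, they are the strongest of each role and any others of that role holding 2 of the words, 11 in all. That choice favours stretches with words, so their frequency is to be read from the counts over the 35 peaks. The first 4 hold 2 words each, and in sec-61.G the last word and the first, both on the other strand, overlap by 1 base. Then rab-7 and arf-6 hold ACGCGC alone and sec-16A.2 GAGAGA alone, and those of vps-22, vps-33.1, vps-35 and vps-52 hold none of the 3.
sec-61.G, chrV:10897317-10897417, minus strand: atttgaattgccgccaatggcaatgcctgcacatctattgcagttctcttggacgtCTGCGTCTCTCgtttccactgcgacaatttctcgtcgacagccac
sec-3, chrX:3099966-3100066, minus strand: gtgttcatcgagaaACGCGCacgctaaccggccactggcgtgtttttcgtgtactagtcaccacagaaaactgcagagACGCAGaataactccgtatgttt
vps-60, chrV:8606411-8606511, minus strand: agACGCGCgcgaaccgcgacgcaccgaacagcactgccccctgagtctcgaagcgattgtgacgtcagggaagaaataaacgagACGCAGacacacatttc
vps-37, chrV:5592486-5592586, plus strand: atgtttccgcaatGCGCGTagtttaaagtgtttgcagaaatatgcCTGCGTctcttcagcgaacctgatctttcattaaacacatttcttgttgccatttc
rab-7, chrII:11967682-11967782, minus strand: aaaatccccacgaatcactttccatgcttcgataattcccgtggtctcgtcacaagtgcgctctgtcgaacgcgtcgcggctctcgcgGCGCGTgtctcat
arf-6, chrIV:16946899-16946999, plus strand: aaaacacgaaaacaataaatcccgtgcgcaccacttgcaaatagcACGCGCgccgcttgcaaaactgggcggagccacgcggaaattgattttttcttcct
sec-16A.2, chrX:8286889-8286989, plus strand: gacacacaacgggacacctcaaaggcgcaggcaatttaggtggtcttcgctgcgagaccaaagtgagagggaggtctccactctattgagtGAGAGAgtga
vps-22, chrIII:4963057-4963157, minus strand: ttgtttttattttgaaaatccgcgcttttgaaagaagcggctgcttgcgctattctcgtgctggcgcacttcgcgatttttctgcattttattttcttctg
vps-33.1, chrIII:8700710-8700810, plus strand: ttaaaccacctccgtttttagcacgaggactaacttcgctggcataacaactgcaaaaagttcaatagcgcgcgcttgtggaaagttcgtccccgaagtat
vps-35, chrII:5907628-5907728, plus strand: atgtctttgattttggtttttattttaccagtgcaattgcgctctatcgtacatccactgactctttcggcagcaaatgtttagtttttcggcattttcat
vps-52, chrX:7565161-7565261, plus strand: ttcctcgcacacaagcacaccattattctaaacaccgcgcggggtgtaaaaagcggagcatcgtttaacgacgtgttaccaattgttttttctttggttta

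Trafficking genes under other symbols had a thresholded summit in 39 of 107 cases (36.4%, against 13.7% of all protein-coding genes), and 65 had a pooled summit (60.7%, against 36.5%). As above, a summit in a window need not belong to that gene: another 5′ end was nearer for copa-1, aps-1 (the proteasome gene rpt-2), apm-1, syx-5, git-1, tbc-11 and grp-1. The COPI coat, which returns cargo from the Golgi, had 5 of 7, copz-1 (signal 145), copa-1 (102), copb-2 (82.4), copg-1 (70.1) and copd-1 (68.8). Clathrin and adaptor genes had 10 of 15, with the adaptor genes aps-1 (233) and apb-1 (213) strongest, then aps-3 (137), the dynamin gene dyn-1 (124), dpy-23 (117), apa-2 (105.9), clic-1 (105.6), aps-2 (78.6), apm-1 (61.8) and the clathrin heavy chain gene chc-1 (57.7). SNARE and fusion genes had 6 of 28, nbet-1 (191), nsf-1 (166), snb-1 (136), use-1 (129), memb-1 (107.9) and syx-5 (84.0). Of 8 ESCRT components and partners under other symbols 3 had a summit (37.5%), chmp-7 (256), did-2 (55.3) and mvb-12 (49.1). The ESCRT-I gene tsg-101 was not among them. The vacuolar ATPase genes, which acidify the same compartments, had a thresholded summit in 8 of 20 cases and a pooled summit in 16.

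Regulators of Rab and Arf GTPases were listed together with some GTPases under other symbols, such as sar-1 and unc-108. This list had a thresholded summit in 15 of 49 cases, against 13.7% of all protein-coding genes. The highest signals were at rbg-3 (299.5), tbc-14 (185), ccz-1 (173), rbg-1 (141) and rbg-2 (133). The COPII GTPase gene sar-1 (122), git-1 (119), trpp-9 (91.8), tbc-11 (90.2) and the Rab2 gene unc-108 (79.5) followed. The remaining 5 were trpp-10 (79.01), grp-1 (70.5), tbc-6 (61.5), tbc-20 (58.0) and agef-1 (54.1). For tbc-20 no replicate 2 summit lay within 100 bp.

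The rab-, arf-, arl-, vps- and sec- genes without a pooled summit had at most weak peaks in the replicates. Of these 31 genes, 17 had a summit in the relaxed list of 30000 peaks of at least 1 replicate, and 14 had none in either. The same share over all protein-coding genes without a pooled summit was not counted. Those lists held a summit for 50 of the 79 genes in replicate 1, against 43.3% of all protein-coding genes, and for 59 in replicate 2, against 42.9%. Among the 31 genes without a pooled summit the highest signal was 15.97 in replicate 1, at sec-16A.1, and 10.7 in replicate 2, at arl-13. For comparison, the lowest matched signals among the 35 genes with a thresholded summit were 11.6 in replicate 1 and 21.3 in replicate 2, so the ranges overlapped in replicate 1 and not in replicate 2. A gene without a peak in these lists is 1 at which none was called at this depth.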

How the data were processed

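Chromatin immunoprecipitation was measured in 2 samples of 1 group. The authors called peaks against a control, in each replicate and in both pooled, and thresholded them by irreproducible discovery rate, per their deposited notes. Aligner, caller and versions: not given in the sources used here. Each peak carries a signal value and a −log10 q value as deposited by the authors, and genes were ranked by signal. Depth is unknown, since the lists hold no read counts.

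The 4 ce11 lists were placed on WBcel235 with the Ensembl release 115 annotation (Python 3.11.15, pandas 2.3.3). A gene counted when a summit lay from 1000 bp upstream to 200 bp downstream of its outermost 5′ end. Replicate summits were matched within 100 bp. Words were counted within 50 bp of summits. The assignment and the word count were tested on simulated data. No significance test was run: 1 group of 2 samples allows none over samples, and counts are set beside all protein-coding genes. The members and lists were chosen with earlier results of these data known. Named genes are all members with a thresholded summit, the 10 strongest others, and those with a summit on the lists of other names. In addition, some further members and the windows' neighbours were named. Alternatives were other windows, peak regions, transcript starts, peak strengths, single replicates and genes without close neighbours. The ce10 lists were not used.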

Additional observations from a re-analysis of the deposited data

How the results depend on the processing

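The count of 35 genes with a thresholded summit stayed within 1.5 times under the other windows, peak regions, any transcript start, a longer pooled list and each replicate alone. It came to 21 with a stricter strength limit (26.6%, against 8.15% of all protein-coding genes), to 16 of 49 among genes without a close neighbour, and to 22 when the gene had to be nearest, an alternative chosen after seeing the data. The count with a pooled summit, 48, came to 24 of 49 among genes with no close neighbour. These sets are smaller by construction. The median signal of 102 moved to 191 with a stricter strength limit and to 91.9 with a longer pooled list, and lay between 57.8 and 69.9 in single replicates, which have signal scales of their own. Over all protein-coding genes with a summit the medians were 138 with the stricter limit, 69.8 with the longer list, 42.4 in replicate 1 and 57.5 in replicate 2. The median position of −207 bp moved to −165.5 bp without close neighbours, −163.5 bp where the gene was nearest, −262 bp with a stricter strength limit and −171 bp with a longer pooled list, and to between −234 and −231 bp in single replicates. GAGAGA was present in 31.4% of peaks within 100 bp of the summit, and within 25 bp GAGAGA was present in 8.57%, ACGCGC in 11.4% and ACGCAG in 8.57%. No paired analysis was possible because the series has 1 group.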
